A study of Macaca mulatta with 24 samples.

Results

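The 8 immediate early genes described here are FOS, EGR2, EGR4, NR4A1, KLF10, IER2, ARC and DUSP1. They were taken as every probe set of an oligonucleotide array whose only annotated gene is one of these symbols, which gave 11 probe sets of the 52766 on the array and 8 genes of 14132. The genes were chosen with earlier results of these data known, so their counts beside those of the whole array are a description. RNA came from 24 pieces of neocortex of 3 adolescent rhesus monkeys (Macaca mulatta), 2 males (animals 1 and 2) and 1 female (animal 3) aged 2.6 to 2.7 years, kept in group cages without experimental treatment. The areas were the forelimb part of primary motor cortex (M1), dorsal premotor cortex (PMd), ventral premotor cortex (PMv) and prefrontal area 46 (A46), each dissected from the left and the right hemisphere, so that every area has 6 arrays from 3 animals. The animals were perfused with cold heparinised saline within 15 minutes of a pentobarbital overdose (50 mg/kg), and the tissue was dissected on ice and frozen, per the labels' protocols. The order of dissection and the behaviour of the animals before the overdose are not stated in the labels.

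Immediate early genes are transcribed within minutes of synaptic input or other stimulation without new protein synthesis, when calcium and MAP kinase signalling reach transcription factors such as CREB and SRF that are already bound near their promoters. Most encode transcription factors that switch on later genes, and some, such as ARC, act directly at synapses. In the cortex their transcripts are used as a marker of recent neuronal activity, they are short-lived, and they also respond to stress, anaesthesia and handling.

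Values are array intensities normalised by the authors with RMA (robust multi-array average), and a difference between areas is that of their mean log2 values in 3 animals, the hemispheres of an animal being averaged first, with the standard error (SE) and the Benjamini-Hochberg adjusted p of limma over 26383 probe sets. A difference with an adjusted p under 0.05 is called. All 11 probe sets passed the filter on dim probe sets (the mean of all arrays, not of one area), although the second probe sets of EGR2 (mean intensity 54.7) and DUSP1 (59.5) lay close to its limit of 49.3. A gene with 2 probe sets is represented by the brighter one. The left PMv arrays of animals 1 and 2 stood apart from the rest, with a median correlation with the other arrays of 0.984 and 0.988 against 0.991 to 0.993 for the other 22. All of the tissue is bulk cortex, in which fewer cells that express a gene and less RNA per cell cannot be told apart. The summed intensity of 7 pan-neuronal markers was 26461 to 28153 in M1, 26374 to 30425 in PMd, 23623 to 28690.4 in PMv and 26543 to 29628 in A46, so neuronal transcripts were present on every array.

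The immediate early genes were high in A46 and PMd and low in M1 and PMv, so that the premotor areas fell on opposite sides. Of 24 profiles (8 genes in each of 3 animals, hemispheres averaged), 16 had their highest level in A46 and 8 in PMd, and 0 had it in M1 or PMv. The lowest level fell in PMv in 16 and in M1 in 8, the left PMv arrays of animals 1 and 2 being included in these means. An F test over the 4 areas called all 8 genes, against 6.53% of all tested probe sets, with adjusted p = 0.000668 for EGR2, 0.00078 for FOS and 0.015 for ARC, the weakest of the 8. It called the other probe set of NR4A1 (adjusted p = 0.00365) but not the dim second ones of EGR2 (0.36) and DUSP1 (0.236). Without animal 2 it called 0 of the 8 and 0.489% of probe sets, without animal 1 it called 6 and 2.31%, and without animal 3 all 8 and 29.4%, so the counts moved with those over the whole array. By mean, EGR2, NR4A1, KLF10 and IER2 ran in the order A46, PMd, M1, PMv, while FOS, ARC and DUSP1 ran PMd, A46, M1, PMv and EGR4 ran PMd, A46, PMv, M1. Limma called 0 of the 8 genes between A46 and PMd and 0 between M1 and PMv. An unadjusted p under 0.05 was found there in 3 and 4 genes, as in 15.5% and 15.1% of probe sets. Calls across the sides numbered 6 for M1 minus A46, 6 for PMv minus A46, 3 for M1 minus PMd and 1 for PMd minus PMv. Of all probe sets 5.36%, 0.599%, 0.159% and 0.00758% were called in the same directions.

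**Figure D1:**
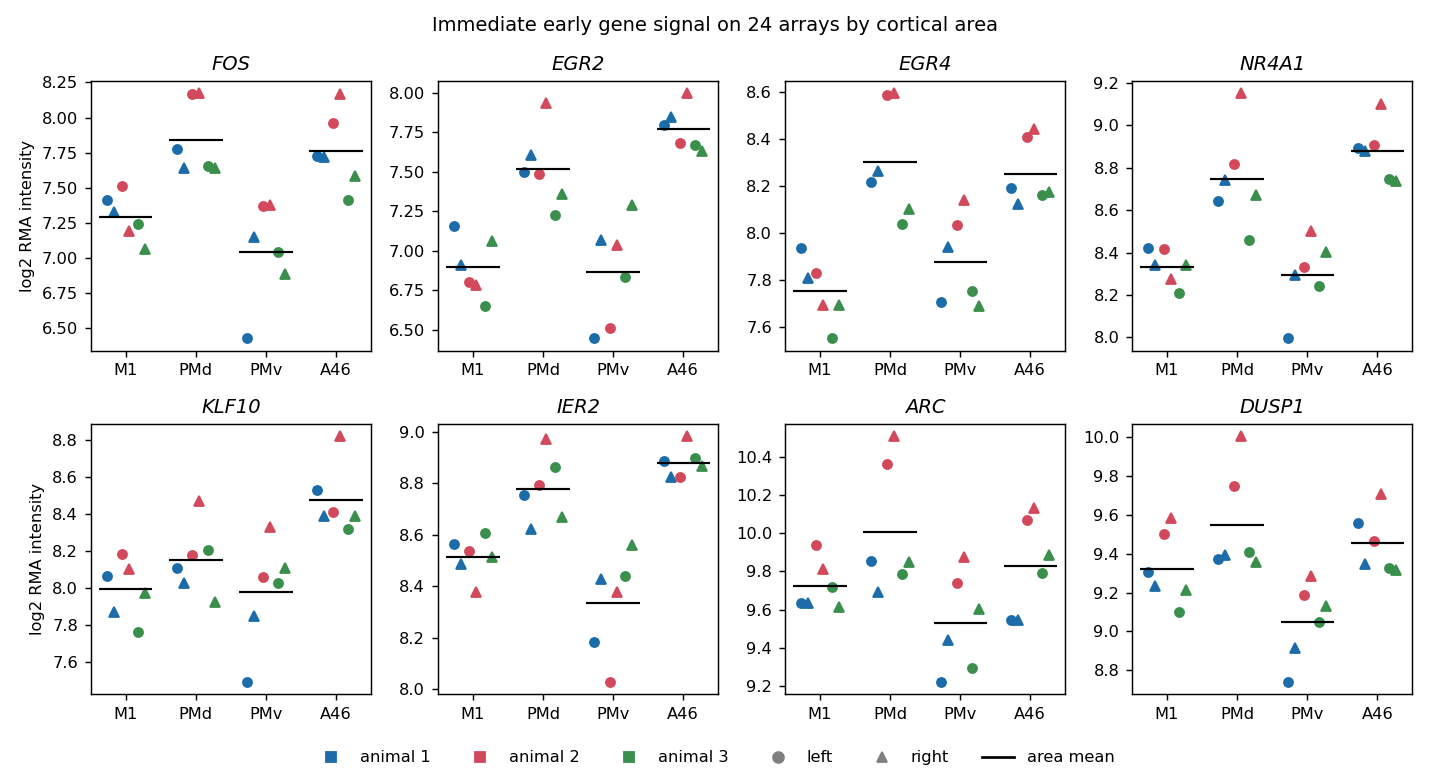
Each panel plots the log2 RMA intensity of 1 gene (vertical axis) on 24 arrays by area (horizontal axis), with colours for the 3 animals, circles for left and triangles for right hemispheres, and a black line at the area mean. In every panel the A46 and PMd means lie above those of M1 and PMv, and animal 2 has the highest PMd mean of the 3 animals in all 8.

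FOS, which pairs with JUN proteins to form the AP-1 transcription factor, is a gene much used to map neuronal activity. The intensity of FOS over the 6 arrays of an area was 134 to 182 (median 156) in M1, 199 to 289 (median 210.1) in PMd, 85.9 to 166 (median 137) in PMv and 170.0 to 287 (median 212) in A46. The PMd and A46 ranges overlapped, as did those of M1 and A46, and every PMd array lay above every M1 and every PMv array. On the log2 scale FOS averaged 7.29 ± 0.12 in M1, 7.84 ± 0.29 in PMd, 7.04 ± 0.30 in PMv and 7.76 ± 0.28 in A46 (SD, n = 3 animals). It was lower than in A46 in PMv (-0.72, SE 0.10, adjusted p = 0.00602) and in M1 (-0.47, SE 0.10, adjusted p = 0.00788), and it was the only member called between the premotor areas (0.80, SE 0.10, adjusted p = 0.0307 for PMd minus PMv). Without animal 2 these differences were -0.74, adjusted p = 0.247 in PMv and -0.35, adjusted p = 0.255 in M1.

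EGR2 and EGR4 encode zinc finger transcription factors of the early growth response family, in which EGR2 is also a regulator of myelination in peripheral nerve. The intensity of EGR2 over the 6 arrays of an area was 100.5 to 143 (median 116) in M1, 149.8 to 245 (median 180.1) in PMd, 87.1 to 157 (median 123) in PMv and 198 to 256 (median 214) in A46. All 6 M1 arrays and all 6 PMv arrays were below the lowest A46 array. EGR2 averaged 6.90 ± 0.13 in M1, 7.52 ± 0.21 in PMd, 6.86 ± 0.17 in PMv and 7.77 ± 0.10 in A46 on the log2 scale (SD, n = 3 animals). EGR2 had the largest differences of the 8 genes, with -0.88, SE 0.11, adjusted p = 0.000302 for M1 minus A46 and -0.91, SE 0.11, adjusted p = 0.00377 for PMv minus A46, that is 1.83-fold and 1.87-fold lower. For M1 it was the 1 member still called without animal 2 (-0.79, adjusted p = 0.0242), while for PMv it was -0.83, adjusted p = 0.247 without animal 2 and -0.83, adjusted p = 0.0573 without animal 1. The dim second EGR2 probe set had smaller differences of the same sign that did not pass (-0.17, adjusted p = 0.145 for M1 and -0.11, adjusted p = 0.447 for PMv). The intensity of EGR4 over the 6 arrays of an area was 187 to 244 (median 215) in M1, 262 to 386 (median 302) in PMd, 206 to 282 (median 230.4) in PMv and 278 to 348 (median 291) in A46. EGR4 averaged 7.75 ± 0.13 in M1, 8.30 ± 0.27 in PMd, 7.88 ± 0.19 in PMv and 8.25 ± 0.15 in A46 on the log2 scale (SD, n = 3 animals). It was lower in M1 than in A46 (-0.50, SE 0.086, adjusted p = 0.00208), with all 6 M1 arrays below all 6 A46 arrays, whereas PMv minus A46 was -0.37, adjusted p = 0.0557. EGR4 was the only gene of the 8 with a lower mean in M1 than in PMv, a difference of -0.13 with a 95% interval of -0.31 to 0.061 that did not pass. Without animal 2 the M1 difference of EGR4 was -0.42, adjusted p = 0.102.

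NR4A1 encodes an orphan nuclear receptor (Nur77) of the NR4A family. The intensity of NR4A1 over the 6 arrays of an area was 296 to 343 (median 324) in M1, 352 to 568 (median 418) in PMd, 255 to 363 (median 318) in PMv and 426 to 549.7 (median 473) in A46. Each M1 and each PMv array lay under the whole A46 range. NR4A1 averaged 8.33 ± 0.055 in M1, 8.75 ± 0.21 in PMd, 8.30 ± 0.14 in PMv and 8.88 ± 0.13 in A46 on the log2 scale (SD, n = 3 animals). It differed by -0.58, SE 0.082, adjusted p = 0.00616 between PMv and A46 and by -0.54, SE 0.082, adjusted p = 0.000887 between M1 and A46. Its other probe set had larger differences, -0.86, adjusted p = 0.0183 and -0.84, adjusted p = 0.0025. KLF10, a zinc finger factor of the Krüppel-like family first described as induced by TGF-beta, had its highest mean in A46 in each animal. The intensity of KLF10 over the 6 arrays of an area was 217 to 291 (median 259.7) in M1, 243 to 354 (median 283) in PMd, 180.4 to 321 (median 264) in PMv and 319 to 451 (median 338) in A46. All 6 M1 arrays were below all 6 A46 arrays, and the PMv and PMd ranges reached into that of A46. Its mean log2 intensity was 7.99 ± 0.14 in M1, 8.15 ± 0.15 in PMd, 7.98 ± 0.27 in PMv and 8.48 ± 0.13 in A46 (SD, n = 3 animals). KLF10 was lower in M1 (-0.48, SE 0.088, adjusted p = 0.00301) and PMv (-0.50, SE 0.088, adjusted p = 0.0209) and had the lowest PMd minus A46 value of the 8 genes (-0.32, adjusted p = 0.0851). Without animal 2 neither gene was called. NR4A1 was then -0.48, adjusted p = 0.077 in M1 and -0.58, adjusted p = 0.311 in PMv, and KLF10 -0.49, adjusted p = 0.133 in M1 and -0.54, adjusted p = 0.588 in PMv. Without animal 1 the PMv values were -0.50, adjusted p = 0.0813 for NR4A1 and -0.35, adjusted p = 0.143 for KLF10.

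IER2, a nuclear protein induced by growth factors and depolarisation, had the smallest spread between animals in A46. The intensity of IER2 over the 6 arrays of an area was 333 to 390.2 (median 369) in M1, 394 to 503 (median 438) in PMd, 261 to 377 (median 339) in PMv and 453 to 506 (median 470.3) in A46. No M1 or PMv array reached the lowest A46 array. IER2 averaged 8.51 ± 0.052 in M1, 8.78 ± 0.10 in PMd, 8.34 ± 0.15 in PMv and 8.88 ± 0.025 in A46 on the log2 scale (SD, n = 3 animals). It was lower in PMv (-0.54, SE 0.077, adjusted p = 0.00605) and in M1 (-0.37, SE 0.077, adjusted p = 0.00704). Without animal 2 it was -0.47, adjusted p = 0.404 in PMv and -0.33, adjusted p = 0.177 in M1, and without animal 1 it was -0.54, adjusted p = 0.0709 in PMv.

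ARC and DUSP1 are the effector genes among the 8. ARC messenger RNA moves to active synapses in dendrites, where its protein promotes removal of AMPA receptors, and DUSP1 is a nuclear phosphatase that switches off MAP kinases. The intensity of ARC over the 6 arrays of an area was 784 to 981 (median 819.6) in M1, 828 to 1457 (median 924) in PMd, 597 to 940.1 (median 737) in PMv and 748 to 1125 (median 917) in A46. The intensity of DUSP1 over the 6 arrays of an area was 548 to 768 (median 617) in M1, 657 to 1027 (median 677) in PMd, 428 to 623 (median 545) in PMv and 637 to 836 (median 678) in A46. For both genes the ranges of M1 and A46 overlapped, and both had their highest mean in PMd, as FOS and EGR4 did. ARC averaged 9.73 ± 0.13 in M1, 10.01 ± 0.37 in PMd, 9.53 ± 0.25 in PMv and 9.83 ± 0.28 in A46 on the log2 scale (SD, n = 3 animals). DUSP1 averaged 9.32 ± 0.20 in M1, 9.55 ± 0.28 in PMd, 9.05 ± 0.21 in PMv and 9.45 ± 0.13 in A46 on the log2 scale (SD, n = 3 animals). Both PMv means were the lowest of the 4 areas. M1 minus A46 was -0.10 with a 95% interval of -0.28 to 0.073 for ARC and -0.13 with a 95% interval of -0.31 to 0.049 for DUSP1, neither of which passed. PMv minus A46 was called for DUSP1 (-0.40, SE 0.083, adjusted p = 0.0373) and not for ARC (-0.30, adjusted p = 0.0936). DUSP1 was not called without animal 1 (-0.29, adjusted p = 0.341) or without animal 2 (-0.43, adjusted p = 0.784), and the dim second DUSP1 probe set did not pass (-0.17, adjusted p = 0.298). Whether ARC and DUSP1 differ from the other 6 genes in their M1 response was not tested.

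Set against A46, 6 of 8 genes were lower in M1 (FOS, EGR2, EGR4, NR4A1, KLF10 and IER2), where 5.36% of all tested probe sets were called lower. The median log2 difference of the 8 was -0.48, beside -0.01 over all 26383 probe sets. The differences were negative for all 8 genes, and for 7 of them in 3 of 3 animals, the exception being ARC, with 0.087, -0.23 and -0.17 in animals 1, 2 and 3. In 5 genes all 6 M1 arrays lay below all 6 A46 arrays, as 3.89% of probe sets did. Only EGR2 was called without animal 2, where 0.47% of probe sets were called lower. The same 6 genes were called without animal 1 (1.72% of probe sets) and without animal 3 (10.2%). On left hemispheres alone 3 were called (EGR2, EGR4 and NR4A1, beside 1.8% of probe sets), and on right hemispheres alone 6 (4.07%). With the 3' to 5' actin ratio described further on as a covariate 5 of the 6 were called, IER2 falling out at adjusted p = 0.186. That fit called 0.804% of probe sets lower.

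The 3 comparisons with A46 share the A46 arrays and are not independent of each other. In PMv 6 of 8 genes were lower than in A46 (FOS, EGR2, NR4A1, KLF10, IER2 and DUSP1), where 0.599% of all tested probe sets were called lower. The median of the 8 genes was -0.52, beside -0.02 over all probe sets, and every gene was lower in 3 of 3 animals. In 5 genes the 6 PMv arrays all lay below the 6 A46 arrays, against 0.716% of probe sets. The count was 1 (FOS) without animal 1, 0 without animal 2 and 8 without animal 3, where 0.0493%, 0.00379% and 19.3% of all probe sets were called lower. Leaving out the left PMv array of animal 1, which had the lowest median correlation with other arrays, kept the same 6 calls, with EGR2 at -0.80 and FOS at -0.60. Right hemispheres alone, which hold neither left PMv array, gave 5 calls (0.19% of probe sets lower), and left hemispheres alone 3 (0.155%).

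Between PMd and A46 limma called 0 of 8 genes, beside 1.95% of probe sets. An unadjusted p under 0.05 was found for 3 (EGR2, KLF10 and ARC) and for 15.5% of probe sets, with 4 genes below and 4 above 0 and a median of -0.03. The 95% intervals were -0.14 to 0.30 for FOS and -0.14 to 0.24 for EGR4 and do not reach the M1 minus A46 values of these genes (-0.47 and -0.50), whereas that of KLF10 includes its M1 minus A46 value of -0.48. Those M1 values have errors of their own and share the A46 arrays, so this is no test of M1 against PMd, which are compared next. KLF10, at -0.32 with a 95% interval of -0.51 to -0.13, was called on right hemispheres alone (adjusted p = 0.0392), after renewed quantile normalisation (0.0226), without the left PMv array of animal 1 (0.0191) and without animal 3 (0.0252). Without animal 3, ARC was called higher in PMd (adjusted p = 0.044), with 11.6% of all probe sets called.

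M1 was lower than PMd in EGR4 (-0.55, SE 0.086, adjusted p = 0.0258), FOS (-0.55, SE 0.10, adjusted p = 0.0406) and EGR2 (-0.62, SE 0.11, adjusted p = 0.0414), that is in 3 of 8 genes, against 0.159% of all probe sets called lower. The dim second EGR2 probe set had -0.15, adjusted p = 0.669. All 8 genes were lower in M1 in 3 of 3 animals, 5 had all 6 M1 arrays below all 6 PMd arrays (0.606% of probe sets did), and NR4A1 had an adjusted p of 0.0601. There were 2 calls (FOS and EGR4) without animal 1, 0 without animal 2 and 4 without animal 3, where 0.0531%, 0% and 0.356% of probe sets were called lower. There were 0 on left hemispheres alone and 4 on right ones, where 0% and 0.269% of probe sets were called lower. Between M1 and PMv limma called 0 of 8 genes, beside 1.87% of probe sets, and 4 had an unadjusted p under 0.05, as 15.1% of probe sets had. The largest M1 minus PMv difference was that of DUSP1, 0.27 with a 95% interval of 0.093 to 0.45, which was called without animal 3 (adjusted p = 0.00923, with 14.5% of probe sets called).

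**Figure D2:**
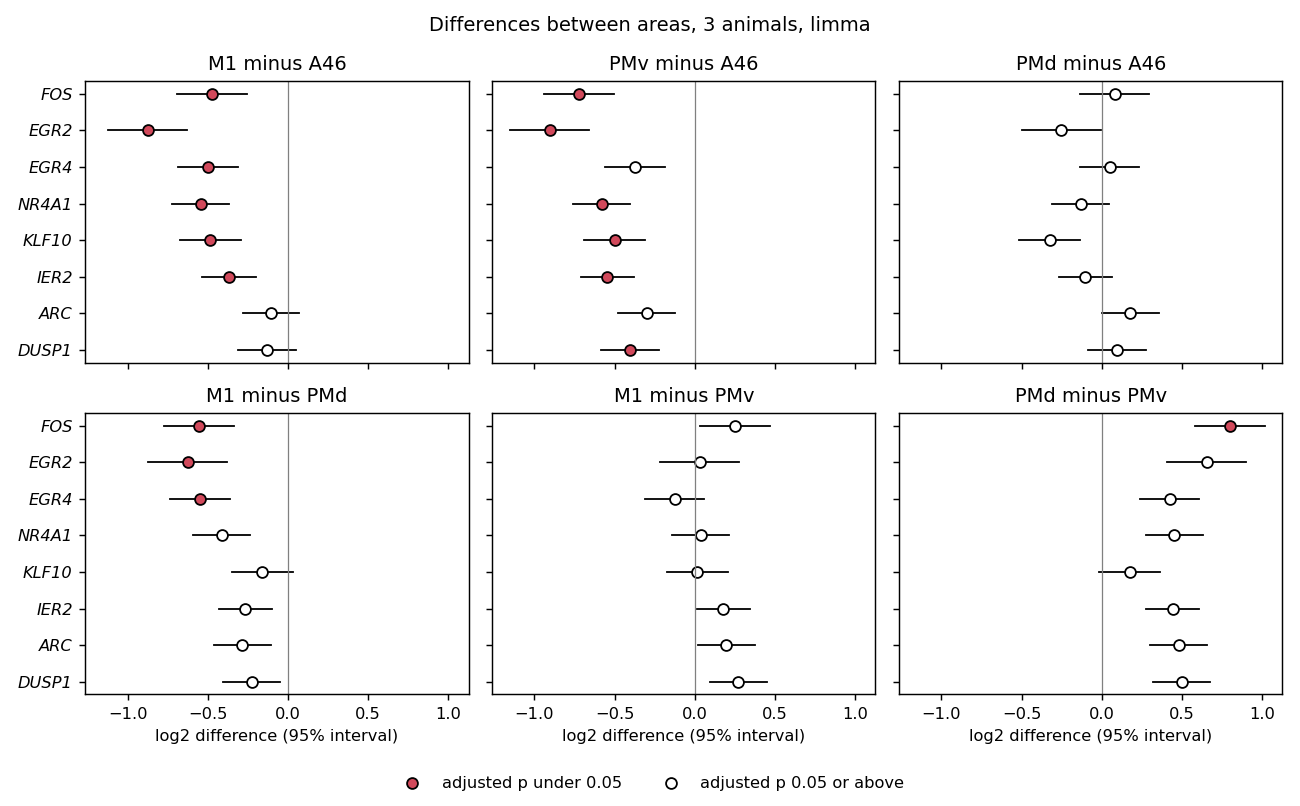
Each panel shows 1 comparison of areas, with the log2 difference on the horizontal axis, 1 gene per row, bars for the 95% interval of limma and filled points where the adjusted p was under 0.05. M1 and PMv lie to the left of 0 against A46, PMd straddles 0 against A46, and all 8 genes lie to the right of 0 for PMd minus PMv.

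PMd and PMv differed in 2 of 26383 probe sets (0.00758%), both higher in PMd, the fewest of any pair of areas. Of the 8 immediate early genes 1 was called, and all 8 had positive differences. The median over all tested probe sets was 0.029, and 0.055 over the 13192 brightest ones. Differences were also positive in 7 of 7 pan-neuronal markers (median 0.10, 0 called by limma, 3 with an unadjusted p under 0.05). They were positive in 4 of 4 excitatory neuron markers (median 0.055, 0 called, 0 unadjusted). Negative values were found in 1 of 4 inhibitory neuron, 1 of 6 oligodendrocyte, 1 of 6 astrocyte and 1 of 5 endothelial and pericyte markers. Of 9 microglia markers 5 were negative, and of 2 blood cell genes 0. The part of neuronal content in the PMd minus PMv differences was not tested. The 2 called probe sets were those of DIAPH3, a formin of the actin skeleton named here after its value was seen, and FOS. When all 26383 probe sets were ordered by p, FOS ranked 2, DUSP1 3, ARC 4, IER2 5, EGR2 7, NR4A1 10 and EGR4 21, while KLF10 ranked 2019. The log2 differences were 0.66 for EGR2, 0.50 for DUSP1, 0.48 for ARC, 0.45 for NR4A1, 0.44 for IER2 and 0.42 for EGR4, and by limma none of these 6 passed the adjustment (adjusted p = 0.257 to 0.322). Of the second probe sets, that of EGR2 had 0.083 (adjusted p = 0.869), that of DUSP1 0.25 (0.854) and that of NR4A1 0.71 (0.35). An unadjusted p under 0.05 was found in 7 of 8 genes and in 5.4% of probe sets. FOS, IER2 and DUSP1 had all 6 PMd arrays above all 6 PMv arrays, as 0.159% of probe sets did.

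The PMd minus PMv difference of FOS was 0.92, 0.80 and 0.68 in animals 1, 2 and 3. For EGR2 it was 0.80, 0.94 and 0.23, so animal 3 showed less of it than the males. FOS was not called without animal 1 (0.74, adjusted p = 0.205) or without animal 2 (0.80, adjusted p = 0.949), where 0.00379% and 0% of all probe sets were called. Without animal 3 the count was 7 of 8, all but KLF10, beside 5.3% of all probe sets. With all 24 arrays in 1 fit and each animal-by-area pair as a random block it was 6 of 8, without KLF10 and EGR2, beside 0.0796% of all probe sets. That fit enters both hemispheres of an animal, so it rests on more units than animals. The count was 0 on either hemisphere alone, and 1, FOS again at 0.68 (adjusted p = 0.0158), without the left PMv array of animal 1.

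**Figure D3:**
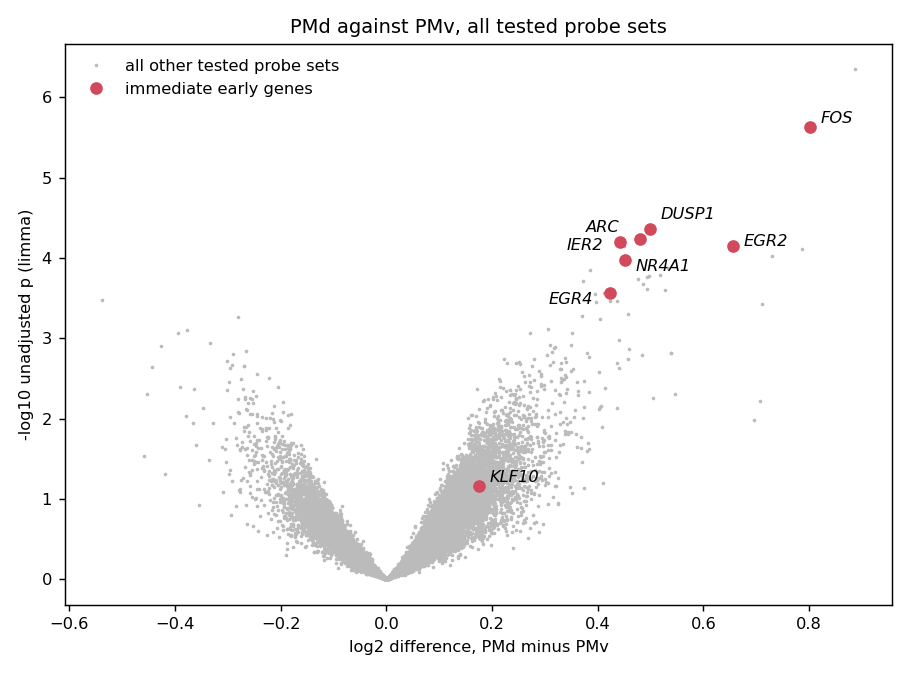
Every tested probe set is a point at its log2 difference for PMd minus PMv (horizontal axis) and -log10 of limma's unadjusted p (vertical axis), with the 8 immediate early genes in red. Of these, 7 sit at the upper right edge of the cloud, FOS being second only to DIAPH3, and KLF10 lies inside it.

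Animals differed in level as well as areas. Of the variance over 12 means, one for each animal and area, the area took 90.2% in EGR2, 88.6% in IER2, 81.8% in NR4A1, 71.1% in FOS and 38.1% in ARC, beside a median of 25.9% over all tested probe sets. The animal accounted for 0.641% in EGR2 and 53.4% in ARC, the lowest and the highest of the 8 genes. The geometric mean ARC intensity over 8 arrays was 761 in animal 1, 1064 in animal 2 and 828 in animal 3. FOS had 168, 214 and 159 in the same order. Animal 2 was highest in 6 of the 8 genes, the exceptions being EGR2, where animal 1 was highest, and IER2, where animal 3 was. These differences between animals were not tested.

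Animal 2 had the highest PMd mean in all 8 genes. The PMd intensity of ARC was 876 in animal 1, 1387 in animal 2 and 902 in animal 3, and that of FOS 209, 288 and 200.4. In animal 1 PMv was the lowest area for all 8 genes, whereas in animals 2 and 3 PMv was lowest in 4 genes and M1 in the other 4. These are means of both hemispheres, with the left PMv arrays that stood apart. On right arrays alone, EGR2 and EGR4 of animal 1 were lowest in M1 (120.5 and 224.1, beside 134 and 245.3 in PMv). In animal 2 every gene but DUSP1 was lowest in M1 on the right arrays.

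For left minus right limma called 0 of 8 genes and 0% of probe sets. A fit on the 3 animal means called 14 of 26383 probe sets, all lower on the left, and 0 of the 8 genes, EGR2 having an adjusted p of 0.111. In the fit on 12 pairs 2 genes, EGR2 and NR4A1, had an unadjusted p under 0.05, as 7.66% of probe sets had. EGR2 was -0.23 on the left relative to the right (95% interval -0.37 to -0.094, adjusted p = 0.429), with the right side higher in 9 of 12 animal-by-area pairs, and NR4A1 was -0.11 (adjusted p = 0.538, 8 of 12 pairs). FOS was -0.019 with an interval of -0.15 to 0.12. These 12 pairs come from 3 animals, so the intervals rest on more units than animals. PMv had a lower mean on the left in all 8 genes and in 3 of 3 animals for 6 of them, and a median of -0.22 beside 0.035 in M1, -0.027 in PMd and -0.056 in A46. The dim second EGR2 probe set went the other way in PMv (0.11, right side higher in 0 of 3 animals). Over the 12 pairs it was 0.017 (adjusted p = 0.96). In PMd 3 genes were lower on the left in 3 of 3 animals, and NR4A1 differed there by -0.22, against -0.21 in PMv. FOS was higher on the left in M1 (0.19, right side higher in 0 of 3 animals). Its PMv mean of -0.19 came mostly from animal 1, with an intensity of 85.9 on the left and 141.7 on the right. In animal 2 these were 164.9 and 166, and in animal 3 the left was higher (131.6 and 118.2). The left PMv arrays of animals 1 and 2 are the arrays that stood apart from the others. Counts by area over all probe sets are not given here, so those of the 8 genes in PMv are a description. A test of whether left minus right differed between areas called 0 of 8 genes and 0% of probe sets (unadjusted p under 0.05 in 4.22%), with adjusted p = 0.999 for every gene. EGR2 and IER2 had an unadjusted p under 0.05 in that test.

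**Figure D4:**
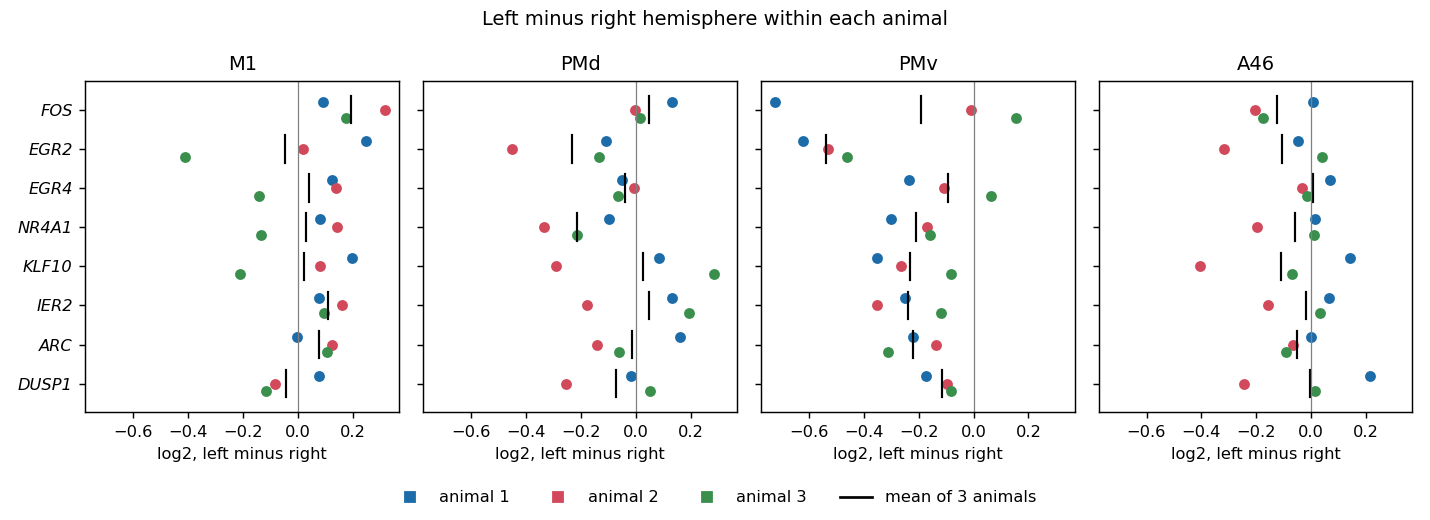
Each panel shows 1 area, with the left minus right log2 difference within an animal on the horizontal axis, 1 gene per row, coloured points for the 3 animals and a black line for their mean. In the PMv panel the means of all 8 genes lie left of 0, against 2 in M1, 5 in PMd and 7 in A46.

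The 8 genes varied together from piece to piece. After animal means were removed, the 28 pairs of genes correlated at 0.42 to 0.98 over the 24 arrays (median 0.81), where the median between a member and the 10035 other tested genes was 0.12. EGR2 and NR4A1 were the closest pair and KLF10 and ARC the most distant. With area and animal means both removed from the 12 means, the median was 0.62 (-0.007 to 0.95, 27 of 28 pairs positive). Between the 12 left minus right differences it was 0.57 (0.21 to 0.83). The medians with other genes were 0.13 and 0.27. All of these values include the left PMv arrays that stood apart. The points share 3 animals and the normalisation of the arrays, so these values are a description.

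The 6 genes outside the 8 whose values were most like the members' mean, by Pearson correlation over the 24 arrays with animal means removed, were PON2 (0.94), an esterase of the paraoxonase family, TRIB1 (0.93), a pseudokinase, JUNB (0.92), a partner of FOS in AP-1, CSRNP1 (0.91), a nuclear protein, GGA1 (0.90), an adaptor of the trans-Golgi network, and PYROXD1 (0.90), an oxidoreductase. TRIB1, JUNB and CSRNP1 were on the list of other immediate early genes described next. PON2 differed by -0.68 between M1 and A46 (adjusted p = 0.000283), -0.68 between PMv and A46 (0.00478) and -0.25 between PMd and A46 (0.178).

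Of 31 other immediate early genes tested, from a list of 46, M1 was lower than A46 in 6 and higher in 3, with a median of -0.14, where 5.36% of all probe sets were called lower and 7.49% higher. The lower ones were IER5 (-0.40, adjusted p = 0.00468), FOSL2 (-0.29, adjusted p = 0.0172), JUNB (-0.32, adjusted p = 0.0253) and JUND (-0.23, adjusted p = 0.027), of which the last 3 encode AP-1 subunits, the RNA-decay factor ZFP36 (-0.45) and the neuron-specific factor NPAS4 (-0.46). Higher in M1 were SGK1 (0.67, adjusted p = 7.53e-05), a kinase induced by glucocorticoids, GADD45B (0.32, adjusted p = 0.0162), a stress-response gene, and MCL1 (0.23), a survival factor. In PMv 4 of the 31 were lower than in A46 and 0 higher, namely IER5 (-0.45, adjusted p = 0.0183), CSRNP1 (-0.33, adjusted p = 0.0358), TRIB1 (-0.46, adjusted p = 0.0373) and JUNB (-0.40, adjusted p = 0.0437), with a median of -0.20. In PMd 1 was lower (IER5, -0.34, adjusted p = 0.045) and 1 higher (SGK1, 0.34, adjusted p = 0.0327), with a median of 0.03. Between PMd and PMv 0 of 31 were called by limma, 13 had an unadjusted p under 0.05 (5.4% of probe sets did), and 27 of 31 had a positive difference. EGR1, EGR3, FOSB, JUN and NR4A3 are not analysed here.

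Of 9 tested delayed effector genes, which neurons induce later than the immediate early genes, 4 were lower in M1 than in A46 and 0 higher, namely NPTX2 (-0.57, adjusted p = 0.000742), a pentraxin that clusters AMPA receptors, SCG2 (-0.30, adjusted p = 0.00904), a granin of secretory vesicles, the neurotrophin BDNF (-0.50, adjusted p = 0.0103) and NRN1 (-0.33, adjusted p = 0.0215), a neurite growth factor. The median was -0.21 in M1, and -0.29 in PMv, where NRN1 was lower (-0.40, adjusted p = 0.0431). It was -0.10 in PMd, where limma called 0 of 9 (3 with an unadjusted p under 0.05, beside 15.5% of probe sets) and all 9 had a positive difference from PMv. Of 24 upstream genes of the calcium, CREB, SRF and MEF2 pathways 7 were lower in M1 than in A46 and 0 higher. They included the activity-dependent factor MEF2C (-0.39, adjusted p = 0.00175), the MAP kinase MAPK3 (-0.30, adjusted p = 0.0022), the SRF cofactor MRTFB (-0.39, adjusted p = 0.00226) and the CREB kinase CAMK4 (-0.48, adjusted p = 0.00427), and 1 of the 7, CAMK2A, is also among the excitatory neuron markers below. In PMd and in PMv limma called 0 of the 24 against A46, with an unadjusted p under 0.05 in 7 and 11 of them, as in 15.5% and 18.8% of all probe sets, and the medians were -0.08 in M1, -0.06 in PMd and -0.08 in PMv.

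Smaller lists of partners showed few calls. Among 7 feedback regulators of MAP kinases, SPRY1 was higher (0.37, adjusted p = 0.00384) and SPRY2 lower (-0.26, adjusted p = 0.0217) in M1 than in A46, both being inhibitors of receptor tyrosine kinase signalling. Of 6 Arc partners and AMPA receptor trafficking genes, the receptor subunit GRIA1 was lower (-0.25, adjusted p = 0.027), and of 5 coregulators of EGR and NR4A proteins, TLE1 was lower (-0.46, adjusted p = 0.0013). In PMd only SPRY1 of these 3 lists was called against A46 (0.32, adjusted p = 0.036), and in PMv 0 of their genes were.

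**Figure D5:**
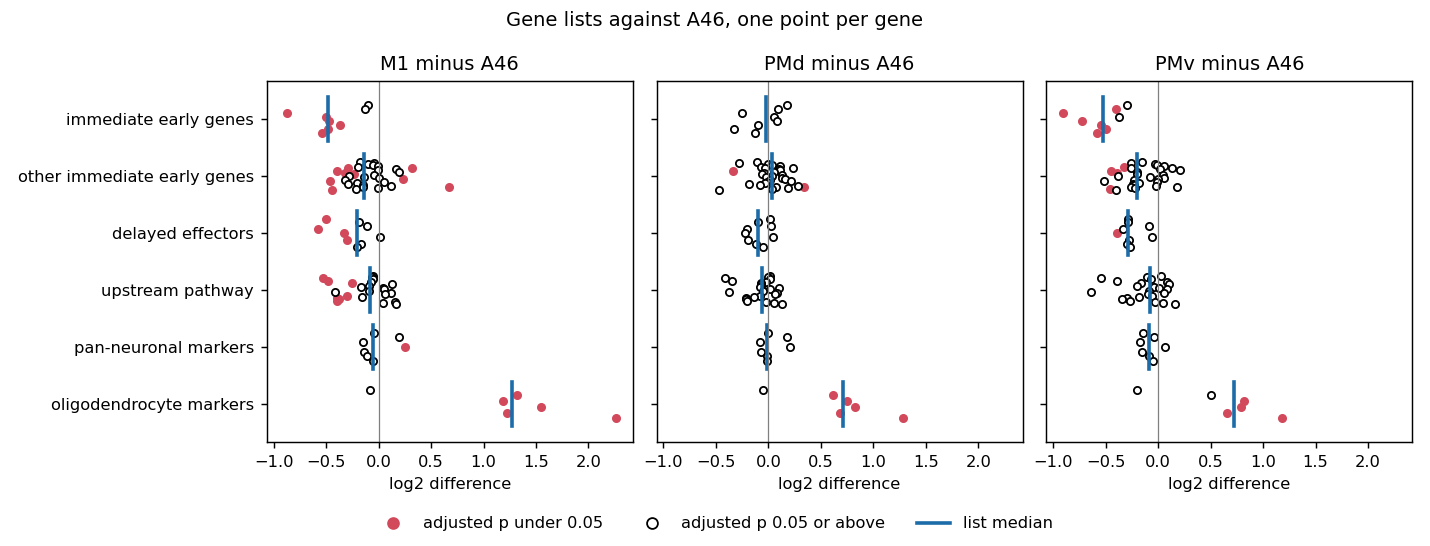
Each panel shows 1 comparison with A46, with the log2 difference on the horizontal axis, 1 point per tested gene, filled where the adjusted p was under 0.05, and a blue line at the median of each list. The median of the 8 immediate early genes is -0.48 in M1 and -0.52 in PMv but -0.03 in PMd, while that of oligodendrocyte markers is above 0 in all 3 panels.

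Oligodendrocyte markers were higher than in A46 in 5 of 6 tested genes in M1 (median 1.27), 5 of 6 in PMd (0.71) and 4 of 6 in PMv (0.72), CNP being the gene with a negative value in each. Their summed intensity was 18443 to 25214 in M1, 13117 to 17506 in PMd, 13746 to 18480.4 in PMv and 9607 to 13114 in A46. Among 7 pan-neuronal markers 1 was called in M1, STMN2, which was higher (0.25, adjusted p = 0.0135), and 0 in PMd and PMv. Of 4 excitatory neuron markers CAMK2A (-0.53, adjusted p = 0.023) and NEUROD6 (-0.31, adjusted p = 0.028) were lower and TBR1 (0.20, adjusted p = 0.0391) higher in M1, and of 4 inhibitory ones PVALB (1.28) and GAD2 (0.78) were higher and VIP (-0.48) lower, with PVALB also higher in PMd (0.82, adjusted p = 0.00198). The summed excitatory markers were 4274 to 5190.4 in M1, 4306 to 5533 in PMd, 3846 to 5592 in PMv and 4787 to 5285 in A46, and the inhibitory ones 3009 to 3374 in M1, 2980.3 to 3288 in PMd, 2289.8 to 3239.9 in PMv and 2676 to 3220.1 in A46. In M1 2 of 6 astrocyte markers were higher, S100B (0.69) and ALDOC (0.27), 2 of 9 microglia markers were higher, TYROBP (0.48) and ITGAM (0.26), with CD68 lower (-0.41), and 1 of 5 endothelial and pericyte markers was higher, SLC2A1 (0.24), and these 3 lists had 0 calls in PMd and PMv. Of blood cell genes 2 were tested and 0 called. The part of cell makeup in the immediate early gene differences was not tested.

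RNA integrity was read from control probe sets at the 3' and 5' ends of actin, whose log2 ratio was 0.94 ± 0.054 in M1, 0.99 ± 0.15 in PMd, 1.10 ± 0.14 in PMv and 1.08 ± 0.11 in A46 (SD, n = 3 animals). That of GAPDH was 0.96 ± 0.039 in M1, 0.95 ± 0.062 in PMd, 0.92 ± 0.061 in PMv and 0.84 ± 0.048 in A46. Over the 24 arrays with animal means removed, the 8 genes correlated with the actin ratio at -0.24 to 0.18 and with the GAPDH ratio at -0.50 (KLF10) to 0.12 (ARC), as a description of arrays from 3 animals. The mean GAPDH ratio was lowest in A46, and the part of RNA integrity in the area differences was not tested beyond the fit with the actin ratio. With the actin ratio as a covariate, 5 genes were called lower in PMv than in A46, 0 in M1 against PMd and 0 in PMd against PMv. That fit called 0.193% of all probe sets lower in PMv than in A46. It called 0.0152% lower in M1 than in PMd and 0% between PMd and PMv.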

How the data were processed

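Each of 24 cortical pieces was hybridised to 1 one-colour Affymetrix array. The deposited values are intensities on a linear scale that the authors summarised per probe set with RMA, per the submitters' processing notes. The RMA version is not given in the sources used here. RMA brings arrays close to one distribution, so a shift shared by most transcripts would be largely hidden. Median intensity was 47.9 to 51.7 per array. Precision is limited by the number of arrays and animals, since arrays carry no counts.

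Intensities were converted to log2 and 99 control probe sets removed. Probe sets were named from the platform annotation (24956 with 1 symbol, 361 with several, 27449 with none, and 24616 of the 24956 matched a current gene entry). Probe sets whose mean over all arrays lay under the overall median (log2 5.62) were not tested.

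The hemispheres of an animal and area were averaged, and the 12 means were modelled on area and animal in limma (3.58.1, under R 4.3.3), with an intensity trend and 6 residual degrees of freedom. The animal is the pairing: deviations from the area means correlated within animals in all 18 pairs of areas, at 0.21 to 0.85. For left minus right all 24 arrays were used, blocked by piece pair (the same area of the same animal). Tests were two-sided and adjusted over all 26383 probe sets. Of the fits, only that of the areas was tested on simulated data, for M1 minus A46. The alternatives were other filters, no animal term, each animal or hemisphere left out, all 24 arrays, renewed quantile normalisation, no trend and the actin ratio as a covariate. One more, leaving out the left PMv array of animal 1, was chosen after seeing the data. All 8 genes are reported, with the second probe sets of EGR2, NR4A1 and DUSP1 in part of the comparisons. Also given are up to 4 called genes of each list by p in M1 minus A46, the 6 genes most like the members, and others where a count needs them. The members and lists were chosen with earlier results of these data known.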

Additional observations from a re-analysis of the deposited data

Results flagged for a closer look

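In 44 sets of 6 arrays (11 probe sets in 4 areas), 1 array lay far from the other 5 by Dixon's criterion, which marks about 5% of sets by chance. It was the right PMd array of animal 3 for the dim second probe set of EGR2, at an intensity of 63.4 where the other 5 PMd arrays had 53.8 to 56.8. The brighter EGR2 probe set, on which the report rests, had 0 such arrays.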

How the results depend on the processing

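Across the comparisons of areas and hemispheres, single-gene results kept their direction and side of the threshold in 624 cases, lost the call in 62 and gained it in 28, and 0 called results changed sign. All counts here are of the 8 genes by limma. With no replicate block, that is without the animal term that pairs the areas, the counts were 3 for any area against 8, 3 for M1 minus A46 against 6, and 0 for PMv minus A46, M1 minus PMd and PMd minus PMv against 6, 3 and 1. Of all probe sets that fit called 1.09%, 4%, 0.00379%, 0% and 0% in the same order, in either direction. Leaving out 1 animal gave 0 to 8 for any area, 1 to 6 for M1 minus A46, 0 to 2 for PMd minus A46, 0 to 8 for PMv minus A46, 0 to 4 for M1 minus PMd, 0 to 1 for M1 minus PMv and 0 to 7 for PMd minus PMv, with no count lower than that without animal 2, and males only in those without animal 3. Over all probe sets the counts of every area comparison fell without animal 1 and without animal 2, and rose without animal 3. For any area, 2.31%, 0.489% and 29.4% were called in that order. Left hemispheres alone gave 3 for M1 minus A46, 3 for PMv minus A46, 0 for M1 minus PMd and 0 for PMd minus PMv, and right hemispheres alone 1 for PMd minus A46 and 0 for PMd minus PMv. Of all probe sets left hemispheres had 4.79%, 0.398%, 0.00379% and 0% called in either direction, and right ones 1.34% and 0.00379%. All 24 arrays with a random pair block, a fit that rests on more units than animals, gave 1 for M1 minus PMv and 6 for PMd minus PMv. That was beside 3.78% and 0.0796% of probe sets. Quantile normalisation gave 1 for PMd minus A46 and 0 for PMd minus PMv, beside 3.65% and 0.00379% of probe sets. No trend gave 1 for M1 minus PMd, the actin covariate 0 for it and 0 for PMd minus PMv, the upper-quarter filter 0 for PMd minus PMv, and the fit without the left PMv array of animal 1 gave 1 for PMd minus A46. The shares of all tested probe sets called there were 0.19%, 0.019%, 0%, 0% and 3.32% in that order. The causes were not tested. Without a filter on dim probe sets the other immediate early genes called in PMd minus A46 numbered 1 against 2, and the other list counts of the 3 comparisons with A46 stayed within 1.5 times. Signal near the filter limits the second probe sets of EGR2 and DUSP1.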

Other observations

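Genes outside the 8 that stood beside them in the ordering of all probe sets by p for PMd minus PMv were looked up after the ranks were seen. They included 3 further immediate early genes, NPAS4 (rank 9, log2 difference 0.73, adjusted p = 0.28), a factor induced in neurons by calcium entry, TRIB1 (rank 14, log2 difference 0.50, adjusted p = 0.297) and TIPARP (rank 22, log2 difference 0.41, adjusted p = 0.322), an enzyme of the PARP family. None of the 3 passed limma's adjustment. NPAS4 was lower in M1 than in A46 (-0.46, adjusted p = 0.0355), while its PMv minus A46 value was -0.52, adjusted p = 0.0763. PVALB (rank 11, log2 difference 0.53, adjusted p = 0.297), the calcium-binding protein of fast-spiking interneurons, and NEFH (rank 6, log2 difference 0.45, adjusted p = 0.257), the neurofilament heavy chain, ranked close to them without passing.

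SGK1 had its highest level in M1. Its mean log2 intensity was 7.71 in M1, 7.39 in PMd, 7.23 in PMv and 7.05 in A46, and it was called higher than in A46 in M1 and PMd, with PMv minus A46 at 0.18, adjusted p = 0.2.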
